A study of Mus musculus with 24 samples.

Results

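The acute phase proteins described here are 10 plasma and tissue proteins of the inflammatory response: the serum amyloid A proteins Saa1, Saa2, Saa3 and Saa4, lipocalin 2 (Lcn2), the orosomucoids Orm1, Orm2 and Orm3, haptoglobin (Hp) and serum amyloid P component (Apcs). They were chosen by name: every gene probe whose gene name on the array was one of these 10 symbols was taken, which gave 10 probes, 1 for each gene, of 55681 gene probes on the array. All 10 probes were above background on all 24 arrays, so the 10 genes stood among the 15353 genes tested and no member was lost to the filter on dim probes. Their messenger RNA was measured in livers of male mice of the inbred strains WSB/EiJ, C3H/HeJ and A/J on 1-colour Agilent arrays, 4 arrays for each strain and diet. The CFD groups of WSB/EiJ, C3H/HeJ and A/J mice ate a diet with 0.17% methionine and without choline or folic acid from 8 weeks of age for 12 weeks, so that livers were taken at 20 weeks. The control groups of the same 3 strains ate the same food with 2 mg/kg folic acid, choline bitartrate at 0.3% and methionine at 0.4%, for the same time. Both diets were iron-supplemented and defined by their l-amino acids, so iron supplementation was shared by all 6 groups, and no transgene or deletion is named for any of them. C3H/HeJ mice are known for an inherited defect of Tlr4, the receptor for bacterial lipopolysaccharide, which both of their diet groups carry.

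The acute phase response is a change in what the liver secretes after injury or infection. Interleukin 6, acting through Stat3, and interleukin 1 and tumour necrosis factor, acting through NF-kappaB and C/EBP factors, raise the transcription of positive acute phase genes in hepatocytes and lower that of negative ones such as albumin and transthyretin. In the mouse Saa1 and Saa2 are the inducible liver forms that travel on high-density lipoprotein, Saa3 is made mainly outside hepatocytes, in macrophages and fat cells among others, and Saa4 is the constitutive form. Lcn2 binds bacterial siderophores and is made by injured epithelia, hepatocytes and neutrophils. Orosomucoids, also called alpha-1-acid glycoproteins, bind drugs and other small molecules, haptoglobin clears free haemoglobin, and Apcs is a pentraxin that is a main acute phase protein of the mouse.

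The members form small families of close copies, so the probe sequences matter for what was measured. The 3 orosomucoid genes lie side by side on chromosome 4, and their probes are shown because the 3 genes gave 3 different patterns. In the scanner files' coordinates (mm9) the Orm1 probe spans chr4:63006483-63007090 and the Orm3 probe chr4:63018910-63020393, both longer than a 60-base probe and therefore across a splice junction, and the Orm2 probe lies at chr4:63024979-63025038. The probe letters, as the files give them, are:
Orm1: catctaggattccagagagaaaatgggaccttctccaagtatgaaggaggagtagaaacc
Orm2: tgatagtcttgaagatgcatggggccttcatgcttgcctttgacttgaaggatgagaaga
Orm3: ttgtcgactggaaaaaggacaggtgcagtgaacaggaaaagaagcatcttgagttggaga
The longest run of identical bases between any 2 of these 3 probes was 7, and between the Saa1 probe (chr7:53996070-53996129) and the Saa2 probe (chr7:54009622-54009681) it was 5. Probes of different regions can still each bind the transcript of a neighbouring copy, and whether they did was not tested.

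Promoter sequence was matched for 8 of the 10 genes in RefSeq's GRCm38.p6 table. The promoters of the 2 pairs whose members lie closest in sequence are shown because Saa1 and Saa2 moved together and Orm2 and Orm3 did not. Each run is the 250 bases before the start of the gene, 5′ to 3′ on the gene's strand, with capitals at matches to the C/EBP core TTNNGNAA on either strand and to the TATA box TATAAA. The Saa1 run is chr7:46742981-46743230 on the minus strand and the Saa2 run chr7:46751583-46751832 on the plus strand. The Orm2 run is chr4:63362199-63362448 and the Orm3 run chr4:63355908-63356157, both on the plus strand.
Saa1: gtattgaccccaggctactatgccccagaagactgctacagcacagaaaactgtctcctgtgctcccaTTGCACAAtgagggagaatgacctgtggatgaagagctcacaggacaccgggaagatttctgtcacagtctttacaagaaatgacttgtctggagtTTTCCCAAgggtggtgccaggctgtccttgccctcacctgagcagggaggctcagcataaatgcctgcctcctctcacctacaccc
Saa2: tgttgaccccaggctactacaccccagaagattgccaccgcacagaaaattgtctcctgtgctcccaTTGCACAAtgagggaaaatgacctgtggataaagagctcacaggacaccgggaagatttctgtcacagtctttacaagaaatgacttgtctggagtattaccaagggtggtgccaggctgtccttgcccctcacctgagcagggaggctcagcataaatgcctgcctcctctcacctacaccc
Orm2: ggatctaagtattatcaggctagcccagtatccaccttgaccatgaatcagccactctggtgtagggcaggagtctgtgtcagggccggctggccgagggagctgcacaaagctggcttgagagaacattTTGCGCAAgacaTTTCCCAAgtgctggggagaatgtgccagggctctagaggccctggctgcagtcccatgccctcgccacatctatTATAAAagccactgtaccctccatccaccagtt
Orm3: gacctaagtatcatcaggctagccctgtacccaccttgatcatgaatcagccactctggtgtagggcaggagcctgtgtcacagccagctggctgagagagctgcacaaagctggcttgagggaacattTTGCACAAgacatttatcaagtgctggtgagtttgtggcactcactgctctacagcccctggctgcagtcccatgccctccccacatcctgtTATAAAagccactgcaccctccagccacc
Saa1 and Saa2 were identical at 238 of 249 aligned bases (95.6%) and Orm2 and Orm3 at 219 of 245 (89.4%). The C/EBP core stood at positions -182 and -86 before the start in Saa1 and at -183 in Saa2, and at -120 and -108 in Orm2 and -121 in Orm3. It was present in 7 of the 8 member promoters and in 36.9% of all 27025 promoters of the same length, so a match is a description of the letters and no more. The STAT core TTCNNNGAA was found in 1 of the 8 member promoters, that of Apcs, and in 7.18% of all promoters, and the NF-kappaB motif in 0 of the 8 and in 3.75% of all promoters. The TATA box was found in Orm2 and Orm3 and in 13% of all promoters.

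Levels below are log2 values of the processed signal minus the array's 75th percentile, so that 0 is the level of that percentile, and levels of different probes cannot be set against each other. A difference of 1 is a doubling. Adjusted p values come from limma across all 15353 genes, with Benjamini-Hochberg adjustment, and a gene rose or fell where its adjusted p was under 0.05. Precision was limited by the 4 arrays of each group, and no label says that the 4 livers of a group came from 4 animals, so the p values reflect the spread of these arrays, which may be technical. All 10 hepatocyte markers were tested, and the adipocyte markers Adipoq, Lep, Plin1 and Retn were too dim to be tested. The other adipocyte markers, Cfd and Fabp4, were tested, as were 6 of 8 pancreas markers. In units of the array's 75th percentile, the summed adipocyte signal reached 33.2 in A/J control livers (median 6.73). The summed pancreas signal reached 55.2 in A/J CFD livers (median 18.8), where the hepatocyte sum was 3740 to 5147. The median diet effect of all genes was -0.29 in WSB/EiJ, -0.12 in C3H/HeJ and -0.05 in A/J under this scaling, and other scalings moved it upward, so a bright gene near these medians had no settled direction. A/J control replicate 4 and A/J CFD replicate 4 stood apart: over 6066 genes that the diet moved alike in the other strains they had mean scores of -0.11 for CFD replicate 4 and -0.09 for control replicate 4, whereas the other A/J CFD arrays had 0.09 to 0.34 and the other A/J control arrays -0.41 to -0.25. In whole liver, fewer cells of a type and less RNA per cell cannot be told apart.

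Of the 10 members, CFD feeding raised 2 and lowered 6 in WSB/EiJ, where 72.4% of all genes tested were called, 24.6% higher and 47.8% lower. In C3H/HeJ it raised 2 and lowered 1 against a background of 45.5% (18.2% higher, 27.3% lower), and in A/J it raised 1 and lowered 2 against 10.4% (6.01% higher, 4.42% lower). The balance in WSB/EiJ turned with the scaling, with 4 higher and 1 lower under quantile, 3 and 1 under spike-in and 3 and 2 under normexp scaling. The 4 CFD arrays lay wholly above the 4 control arrays for 2 members and wholly below for 5 in WSB/EiJ, where this held for 68.6% of all genes (23.3% above, 45.3% below). They did so for 2 above and 0 below in C3H/HeJ against 32.8% (14.9% and 17.9%), and for 1 above and 4 below in A/J against 18% (8.5% and 9.46%). By both measures the members' share was near the background in WSB/EiJ and under it in C3H/HeJ, and above it in A/J, where few genes were called. The only member that rose in all 3 strains was Lcn2, by 34.2-fold in WSB/EiJ, 17.0-fold in C3H/HeJ and 9.34-fold in A/J. Saa3 rose in WSB/EiJ only, and Orm3 in C3H/HeJ only, by 1.36 in log2 (adjusted p = 0.00172). No Saa1, Saa2, Saa4, Orm1, Orm2, Hp or Apcs effect was called upward in any strain under this scaling. Some bright members were called upward in WSB/EiJ by other scalings, as given with each gene. The members' median diet effect was -0.65 in WSB/EiJ, -0.30 in C3H/HeJ and -0.03 in A/J, beside the medians of -0.29, -0.12 and -0.05 over all genes.

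**Figure D1:**
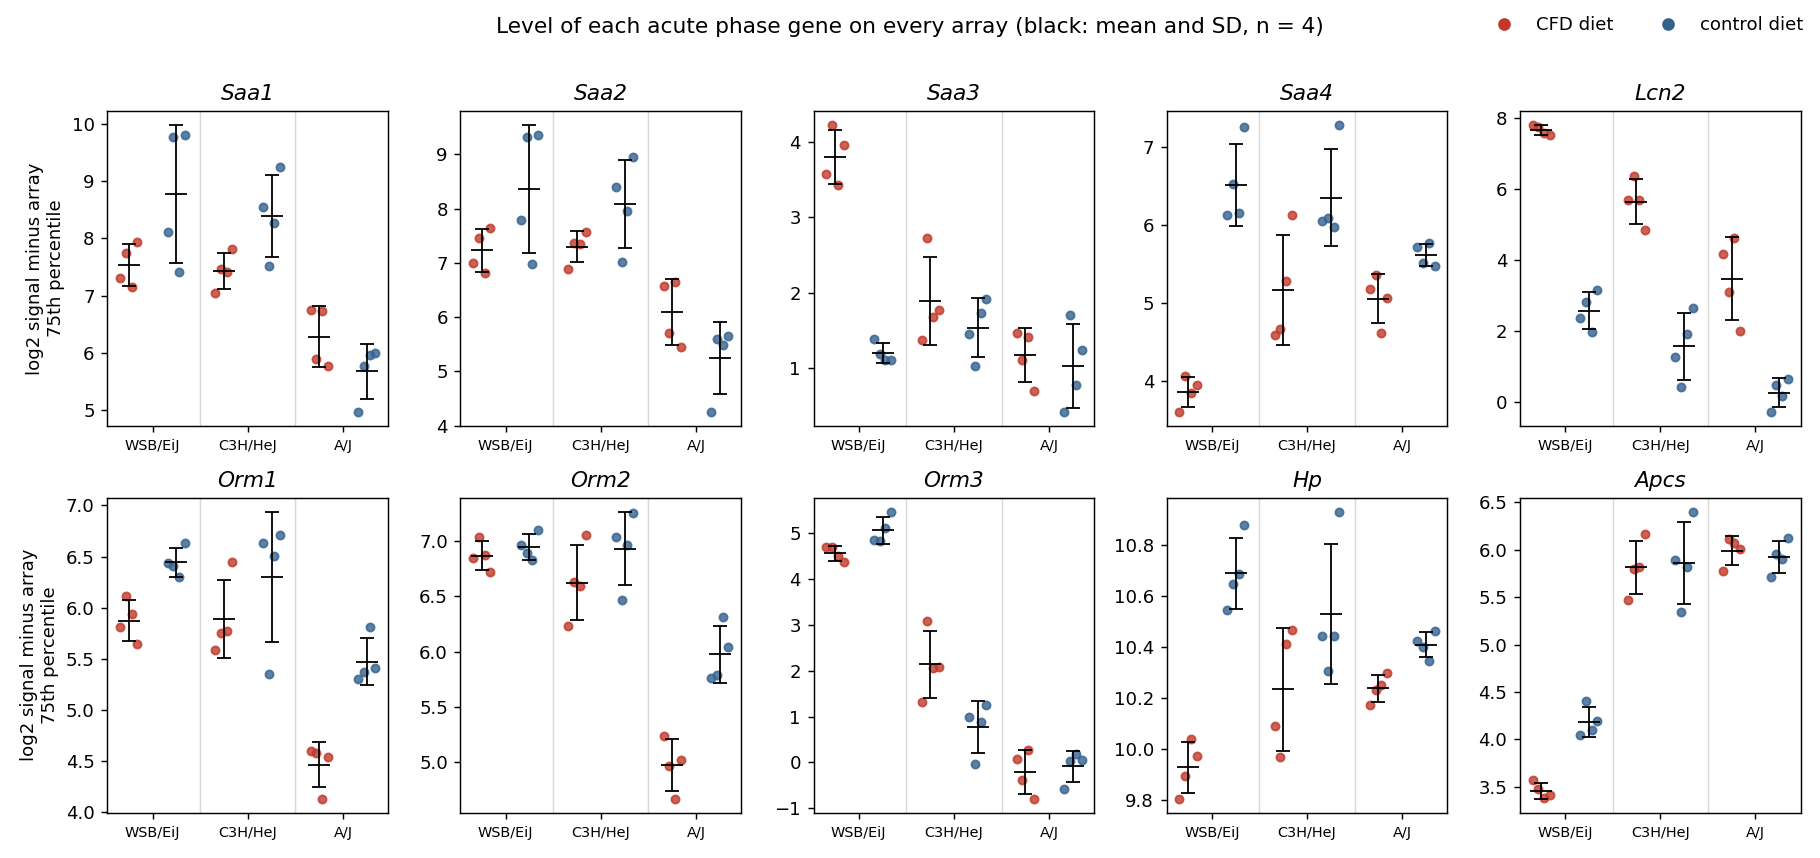
Level of each acute phase gene on every array (log2 processed signal minus the array's 75th percentile, 10 panels), with CFD arrays in red to the left of control arrays in blue within each strain, and black marks for the mean and SD of 4 arrays. Lcn2 is higher on all CFD arrays than on all control arrays of its strain, and Saa3 separates by diet only in the WSB/EiJ panel.

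Lcn2 had the widest range of the 10 genes. It stood at 7.81, 7.75, 7.59 and 7.53 on the WSB/EiJ CFD arrays, against 2.36, 2.83, 1.97 and 3.15 on the WSB/EiJ control arrays. C3H/HeJ CFD livers had 5.69, 6.37, 5.69 and 4.84, against 1.26, 0.42, 1.93 and 2.65 in C3H/HeJ control livers. A/J CFD livers had 4.18, 3.11, 4.62 and 2.01, against -0.28, 0.49, 0.16 and 0.65 in A/J control livers. The diets did not overlap in any strain, and the lowest of the CFD arrays was A/J replicate 4, one of the arrays that stood apart. The log2 differences were 5.09 in WSB/EiJ, 4.08 in C3H/HeJ and 3.22 in A/J (SE 0.48 each), with adjusted p = 1.89e-08, 2.87e-06 and 0.000297. Among all genes tested, Lcn2 was the 90th, 56th and 28th largest increase in WSB/EiJ, C3H/HeJ and A/J. Within single slides the effect was 4.76 to 5.28 in WSB/EiJ, 2.61 to 5.96 in C3H/HeJ and 2.40 to 4.90 in A/J.

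The WSB/EiJ response of Lcn2 exceeded that of A/J by 1.87 (SE 0.68, adjusted p = 0.0288), but without both A/J replicate 4 arrays the excess was 1.25 and its adjusted p 0.125. The same difference also missed the threshold when A/J CFD replicate 2 or 4, A/J control replicate 4 or WSB/EiJ control replicate 3 alone was left out, with adjusted p of 0.0542, 0.0718, 0.0554 and 0.0602. The A/J effect itself was 3.84 without both replicate 4 arrays. WSB/EiJ exceeded C3H/HeJ by 1.01 (adjusted p = 0.274), and C3H/HeJ exceeded A/J by 0.86 (adjusted p = 0.495), neither of which passed. Because Lcn2 is also a granule gene of neutrophils, the neutrophil list is given beside it. Of its 12 markers 7 could be tested, and Ngp, Ltf, Mpo, Cxcr2 and Retnlg were too dim. In WSB/EiJ 2 of the 7 rose and 4 fell, in C3H/HeJ 0 rose and 2 fell, and in A/J 0 rose and 1 fell. Their summed signal, in units of the array's 75th percentile, was 53.6 to 71 in WSB/EiJ CFD livers against 74.4 to 93.7 in WSB/EiJ control livers. S100a9, a calcium-binding protein of myeloid cells, was 1 of the 2 that rose in WSB/EiJ and was picked after its value was seen. It rose by 2.69 there (SE 0.54, adjusted p = 0.000170), while its effects in C3H/HeJ (0.13) and A/J (0.54) were not called. Of the 6 biliary epithelial markers, 5 rose in WSB/EiJ, 2 in C3H/HeJ and 0 in A/J. Their median effects were 1.98, 1.14 and -0.09. Their summed signal was 13.4 to 60.1 on WSB/EiJ CFD arrays against 4.39 to 6.13 on WSB/EiJ control arrays. It was 5.98 to 29.97 on C3H/HeJ CFD arrays against 4.00 to 5.09 on C3H/HeJ control arrays, and 6.35 to 11.6 on A/J CFD arrays against 4.37 to 5.59 on A/J control arrays. The part of either cell type in the Lcn2 result was not tested. These and all later list counts stand against the shares over all genes of 24.6% higher and 47.8% lower in WSB/EiJ, 18.2% and 27.3% in C3H/HeJ, and 6.01% and 4.42% in A/J.

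Saa3, the form made largely outside hepatocytes, rose in WSB/EiJ only among the 3 strains. Its levels were 3.58, 4.22, 3.43 and 3.95 on WSB/EiJ CFD arrays, against 1.39, 1.19, 1.11 and 1.11 on WSB/EiJ control arrays. They were 1.37, 2.73, 1.68 and 1.77 in C3H/HeJ CFD livers, against 1.45, 1.02, 1.74 and 1.92 in C3H/HeJ control livers. They were 1.47, 1.11, 1.42 and 0.70 in A/J CFD livers, against 0.42, 1.70, 0.77 and 1.24 in A/J control livers. The WSB/EiJ groups were far apart and the groups of the other strains overlapped. The WSB/EiJ effect was 2.60 (6.05-fold, SE 0.29, adjusted p = 1.36e-07), while 0.36 in C3H/HeJ and 0.14 in A/J had adjusted p of 0.320 and 0.791. The WSB/EiJ effect exceeded that of A/J by 2.46 (SE 0.40, adjusted p = 9.34e-05) and that of C3H/HeJ by 2.24 (adjusted p = 0.000596). It lay between 2.60 and 3.56 in 5 scalings and between 2.24 and 2.70 within slides. The C3H/HeJ effect was called higher in 1 of the 5 scalings and the A/J effect in 0.

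Macrophage, stellate and biliary markers moved with Saa3 in WSB/EiJ. Of 12 macrophage markers, 10 rose in WSB/EiJ, 9 in C3H/HeJ and 2 in A/J, and their summed signal, in units of the array's 75th percentile, was 243 to 270 on WSB/EiJ CFD arrays against 72.6 to 85.8 on WSB/EiJ control arrays. In C3H/HeJ the same sum was 166 to 245 on CFD arrays against 95.1 to 119 on control arrays, without a called change of Saa3, and in A/J it was 245 to 301 against 183 to 287. Adgre1, the macrophage surface protein F4/80, rose 9.39-fold in WSB/EiJ and 2.30-fold in C3H/HeJ. Clec4f, which marks resident Kupffer cells, had effects of -0.06, 0.29 and 0.40 in WSB/EiJ, C3H/HeJ and A/J, none of them called. Of 6 stellate cell markers, 5 rose in WSB/EiJ, 4 in C3H/HeJ and 1 in A/J, with median effects of 1.27, 1.01 and 0.73. Their summed signal was 47.2 to 96.9 on WSB/EiJ CFD arrays against 6.39 to 9.21 on WSB/EiJ control arrays, 8.74 to 34.9 on C3H/HeJ CFD arrays against 3.13 to 5.17 on C3H/HeJ control arrays, and 6.02 to 14.1 on A/J CFD arrays against 4.28 to 15.3 on A/J control arrays. The part of these cells in the Saa3 result was not tested.

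Saa4, the constitutive form, moved the other way. WSB/EiJ CFD livers had 3.61, 4.06, 3.84 and 3.94, against 6.13, 6.53, 6.16 and 7.26 in WSB/EiJ control livers. C3H/HeJ CFD livers had 4.6, 4.67, 5.28 and 6.13, against 6.05, 6.09, 5.97 and 7.28 in C3H/HeJ control livers. A/J CFD livers had 5.18, 5.36, 4.62 and 5.06, against 5.71, 5.51, 5.77 and 5.47 in A/J control livers. The diets separated fully in WSB/EiJ and A/J, while in C3H/HeJ CFD replicate 4 reached into the control range. Saa4 fell by 2.65 in WSB/EiJ (6.29-fold lower, SE 0.32, adjusted p = 3.75e-07) and by 1.18 in C3H/HeJ (2.27-fold lower, SE 0.32, adjusted p = 0.00521), and the A/J difference of -0.56 was not called (adjusted p = 0.266). In a fit on the C3H/HeJ arrays alone the C3H/HeJ adjusted p was 0.0554. The WSB/EiJ effect was below that of A/J (difference -2.09, SE 0.45, adjusted p = 0.000899) and below that of C3H/HeJ (difference -1.47, adjusted p = 0.0204). Both declines were called in all 5 scalings, with ranges of -2.65 to -1.69 in WSB/EiJ and -1.18 to -0.70 in C3H/HeJ, but the difference between WSB/EiJ and C3H/HeJ was lost under median (-1.35, adjusted p = 0.0518) and spike-in scaling (-0.98, 0.0654).

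Saa1 and Saa2, the inducible apolipoproteins of high-density lipoprotein, had their highest levels in control livers of WSB/EiJ and C3H/HeJ. Saa1 stood at 7.30, 7.74, 7.15 and 7.93 on the WSB/EiJ CFD arrays, against 8.11, 9.78, 7.41 and 9.80 on the WSB/EiJ control arrays. C3H/HeJ CFD livers had 7.04, 7.46, 7.42 and 7.82, against 8.55, 7.52, 8.26 and 9.25 in C3H/HeJ control livers. A/J CFD livers had 6.75, 5.88, 6.73 and 5.77, against 4.97, 5.77, 5.97 and 6.0 in A/J control livers. WSB/EiJ control livers fell into a high and a low pair, the CFD arrays lay close together, and the diets overlapped in each strain. The WSB/EiJ effect on Saa1 was -1.24 (2.37-fold lower, SE 0.45, adjusted p = 0.0181), that in C3H/HeJ -0.96 (adjusted p = 0.0863) and that in A/J 0.61 (adjusted p = 0.408).

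Saa2 gave nearly the same picture. Its WSB/EiJ CFD values were 7.0, 7.45, 6.81 and 7.65, against 7.79, 9.32, 6.97 and 9.35 in WSB/EiJ control livers, again with replicates 2 and 4 of the control group high. Means were 7.30 ± 0.29 in C3H/HeJ CFD and 8.08 ± 0.81 in C3H/HeJ control livers, and 6.09 ± 0.61 in A/J CFD and 5.25 ± 0.66 in A/J control livers (SD, n = 4 each). The effects were -1.13 in WSB/EiJ (2.19-fold lower, SE 0.48, adjusted p = 0.0398), -0.78 in C3H/HeJ (adjusted p = 0.189) and 0.84 in A/J (adjusted p = 0.269). Saa1 and Saa2 deviated from each other by a root mean square of only 0.151 over the 24 arrays after centring each gene. The WSB/EiJ declines rested on few arrays: without WSB/EiJ control replicate 2 the adjusted p was 0.0832 for Saa1 and 0.151 for Saa2, and without control replicate 4 it was 0.0835 and 0.153. Saa2 also missed the threshold without WSB/EiJ CFD replicate 1 (0.0832) or 3 (0.0964). Under 5 scalings the WSB/EiJ effect ranged over -1.24 to -0.28 for Saa1, called in 2, and over -1.13 to -0.17 for Saa2, called in 1. Within single slides it was -2.63 to -0.27 for Saa1 and -2.52 to -0.24 for Saa2, and with the slide as a block the Saa2 decline had adjusted p = 0.0540. A fit on the WSB/EiJ arrays alone gave 0.0672 for Saa1 and 0.0855 for Saa2.

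The diet responses of these 2 genes differed between WSB/EiJ and A/J. The difference was -1.85 for Saa1 (SE 0.64, adjusted p = 0.0215) and -1.98 for Saa2 (SE 0.68, adjusted p = 0.0212), and both missed the threshold without WSB/EiJ control replicate 2 (adjusted p = 0.0533 for Saa1 and 0.0519 for Saa2) or 4 (0.0520 and 0.0509), and Saa2 also without A/J control replicate 1 (0.0505). Without both A/J replicate 4 arrays the differences were -2.13 for Saa1 and -2.32 for Saa2. Both calls were lost under quantile (-1.10 for Saa1, adjusted p = 0.174, and -1.25 for Saa2, 0.145), spike-in (-1.25, 0.135, and -1.38, 0.123) and normexp scaling (-1.11, 0.176, and -1.23, 0.185). For C3H/HeJ minus A/J the differences were -1.57 for Saa1 (adjusted p = 0.173) and -1.63 for Saa2 (adjusted p = 0.184).

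**Figure D2:**
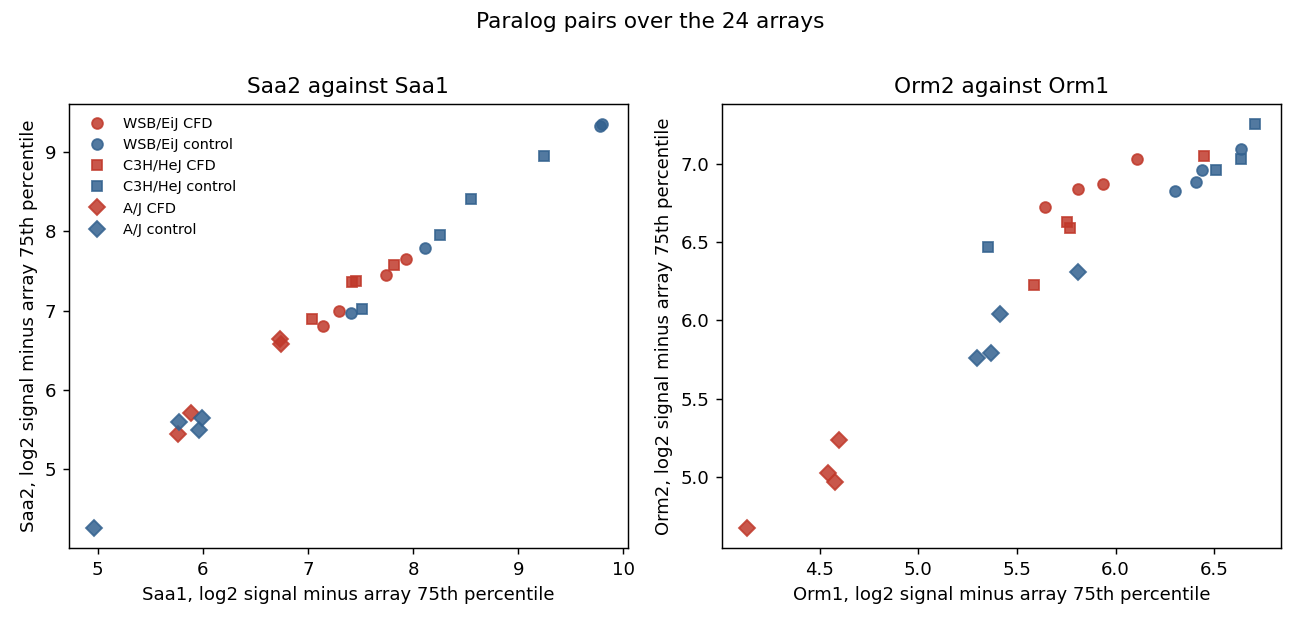
Level of Saa2 against Saa1 and of Orm2 against Orm1 on 24 arrays (both axes log2 processed signal minus the array's 75th percentile; circles WSB/EiJ, squares C3H/HeJ, diamonds A/J, red CFD, blue control). Saa1 and Saa2 lie along 1 line, and the WSB/EiJ CFD arrays lie left of the WSB/EiJ control arrays, at lower Orm1 but about the same Orm2.

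The orosomucoids were called in different strains, which is not in itself a difference between strains. Orm1 fell in A/J and Orm2 with it, Orm3 rose in C3H/HeJ, and in WSB/EiJ only Orm1 was called. Orm1 stood at 4.6, 4.58, 4.13 and 4.54 in A/J CFD livers, against 5.30, 5.37, 5.81 and 5.42 in A/J control livers. Orm2 stood at 5.23, 4.97, 4.67 and 5.02 in A/J CFD livers, against 5.76, 5.79, 6.31 and 6.04 in A/J control livers. For both genes every A/J CFD array was below every A/J control array. The effects were -1.01 for Orm1 (2.01-fold lower, SE 0.23, adjusted p = 0.00865) and -1.0 for Orm2 (2.00-fold lower, SE 0.17, adjusted p = 0.000978). Without both A/J replicate 4 arrays they were -1.06 and -1.0, both still called. Relative to the median of all genes they lay between -0.96 and -0.87 in each of 5 scalings.

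In C3H/HeJ neither of these 2 genes was called. Orm1 was at 5.59, 5.76, 5.77 and 6.45 in C3H/HeJ CFD livers, against 6.64, 5.35, 6.51 and 6.71 in C3H/HeJ control livers, where replicate 2 stood below the rest. Its effect was -0.41 (adjusted p = 0.158), and without C3H/HeJ control replicate 2 it was -0.73 and called. Orm2 averaged 6.63 ± 0.34 in C3H/HeJ CFD and 6.93 ± 0.33 in C3H/HeJ control livers (SD, n = 4 each), an effect of -0.31 (adjusted p = 0.155) that became -0.46 and called without the same array.

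In WSB/EiJ the 2 genes parted. Orm1 had 5.81, 6.11, 5.94 and 5.64 in WSB/EiJ CFD livers, against 6.44, 6.41, 6.30 and 6.64 in WSB/EiJ control livers. Orm2 had 6.84, 7.04, 6.87 and 6.72 in WSB/EiJ CFD livers, against 6.97, 6.89, 6.83 and 7.10 in WSB/EiJ control livers. The diets did not overlap for Orm1 and overlapped for Orm2. The Orm1 effect was -0.57 (1.49-fold lower, SE 0.23, adjusted p = 0.0343), and it was called in 1 of 5 scalings, which ranged from -0.57 to 0.40. The Orm2 effect was -0.08 (adjusted p = 0.698) and ranged from -0.08 to 0.89, with 3 of 5 scalings calling it higher. The Orm1 call was also lost when WSB/EiJ control replicate 1, 2 or 4 or CFD replicate 1 or 4 was left out, with adjusted p of 0.0517 to 0.0921, and with the slide as a block (0.0533).

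A difference between 2 genes on 1 array does not depend on the array's scaling constant. Orm1 minus Orm2 was -1.08 to -0.92 in WSB/EiJ CFD livers, against -0.53 to -0.46 in WSB/EiJ control livers. In A/J it was -0.64 to -0.39 in CFD and -0.63 to -0.42 in control livers, and in C3H/HeJ -0.87 to -0.60 in CFD and -1.12 to -0.40 in control livers. The 2 genes therefore changed unequally in WSB/EiJ, where the ranges did not overlap, and their ranges overlapped in the other strains. The diet effect on Orm2 in WSB/EiJ exceeded that in A/J by 0.92 (SE 0.24, adjusted p = 0.00445). No other difference in response between strains was called for Orm2 under this scaling, and none for Orm1. Orm1 for WSB/EiJ minus A/J was called under quantile (1.04, adjusted p = 0.0102), spike-in (1.04, 0.0123) and normexp scaling (1.00, 0.00691). Orm2 was called under quantile scaling for C3H/HeJ minus A/J (0.92, 0.0192) and WSB/EiJ minus C3H/HeJ (0.61, 0.0479).

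Orm3 was the member with the widest gap between strains on 1 diet. WSB/EiJ CFD livers had 4.68, 4.69, 4.5 and 4.36, against 4.85, 4.82, 5.11 and 5.46 in WSB/EiJ control livers. C3H/HeJ CFD livers had 1.32, 3.09, 2.06 and 2.08, against 0.98, -0.03, 0.87 and 1.26 in C3H/HeJ control livers. A/J CFD livers had 0.07, -0.39, 0.27 and -0.79, against -0.57, 0.03, 0.18 and 0.04 in A/J control livers. All WSB/EiJ arrays were above all arrays of the other strains, and CFD replicate 1 of C3H/HeJ was only just above its controls. Orm3 rose by 1.36 in C3H/HeJ (2.57-fold, SE 0.31, adjusted p = 0.00172), by 1.21 to 1.84 in 5 scalings and by 0.39 to 3.12 within slides. The WSB/EiJ effect of -0.50 was not called (adjusted p = 0.155) although the diets did not overlap, and a fit on the WSB/EiJ arrays alone gave adjusted p = 0.0184. The A/J effect was -0.13 (adjusted p = 0.825). The response in WSB/EiJ was below that in C3H/HeJ (difference -1.86, SE 0.44, adjusted p = 0.00473), and C3H/HeJ minus A/J was 1.49 (adjusted p = 0.0655).

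Haptoglobin, which binds free haemoglobin, was near the top of the signal on every array. It averaged 9.93 ± 0.10 in WSB/EiJ CFD and 10.69 ± 0.14 in WSB/EiJ control livers, 10.24 ± 0.24 in C3H/HeJ CFD and 10.53 ± 0.27 in C3H/HeJ control livers, and 10.24 ± 0.05 in A/J CFD and 10.41 ± 0.05 in A/J control livers (SD, n = 4 each). The WSB/EiJ groups and the A/J groups did not overlap. The effects were -0.76 in WSB/EiJ (1.69-fold lower, SE 0.12, adjusted p = 1.37e-05), -0.30 in C3H/HeJ (adjusted p = 0.0531) and -0.17 in A/J (adjusted p = 0.391). The WSB/EiJ direction depended on the scaling: the 5 scalings gave -0.76 to 0.30, with 2 calling it lower and 1 higher, and values relative to the median of all genes ran from -0.47 to 0.33. Before scaling, the Hp signal was 281675 to 295296 on WSB/EiJ CFD arrays, against 211937 to 286428 on WSB/EiJ control arrays. The C3H/HeJ effect passed with the slide as a block (adjusted p = 0.0178). The WSB/EiJ response was below that of A/J (difference -0.59, adjusted p = 0.00819), but the call was lost under median scaling (0.0589) and the sign was positive under quantile, spike-in and normexp scaling.

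Apcs, the pentraxin, fell in WSB/EiJ and had no called diet effect in the other strains. Its levels were 3.57, 3.48, 3.38 and 3.41 in WSB/EiJ CFD livers, against 4.05, 4.40, 4.10 and 4.19 in WSB/EiJ control livers. The WSB/EiJ groups did not overlap and all their arrays were below every array of C3H/HeJ and A/J. Means were 5.81 ± 0.28 in C3H/HeJ CFD and 5.86 ± 0.43 in C3H/HeJ control livers, and 5.99 ± 0.15 in A/J CFD and 5.92 ± 0.17 in A/J control livers (SD, n = 4 each). The WSB/EiJ effect was -0.72 (1.65-fold lower, SE 0.17, adjusted p = 0.000678), called in 3 of 5 scalings that ranged from -0.72 to 0.24, and between -0.43 and -0.30 relative to the median of all genes. The effects of -0.05 in C3H/HeJ and 0.07 in A/J had adjusted p of 0.83 and 0.833. The WSB/EiJ response was below that of A/J (difference -0.79, adjusted p = 0.00991) and below that of C3H/HeJ (difference -0.68, adjusted p = 0.0408). The second of these missed the threshold when any 1 of 11 arrays was left out, with adjusted p up to 0.0973, and with the slide as a block (0.0717). It was also lost under quantile (0.0844), median (0.168), spike-in (-0.19, 0.610) and normexp scaling (0.0845), and the first was lost under quantile (-0.51, 0.0714) and spike-in scaling (-0.19, 0.566).

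**Figure D3:**
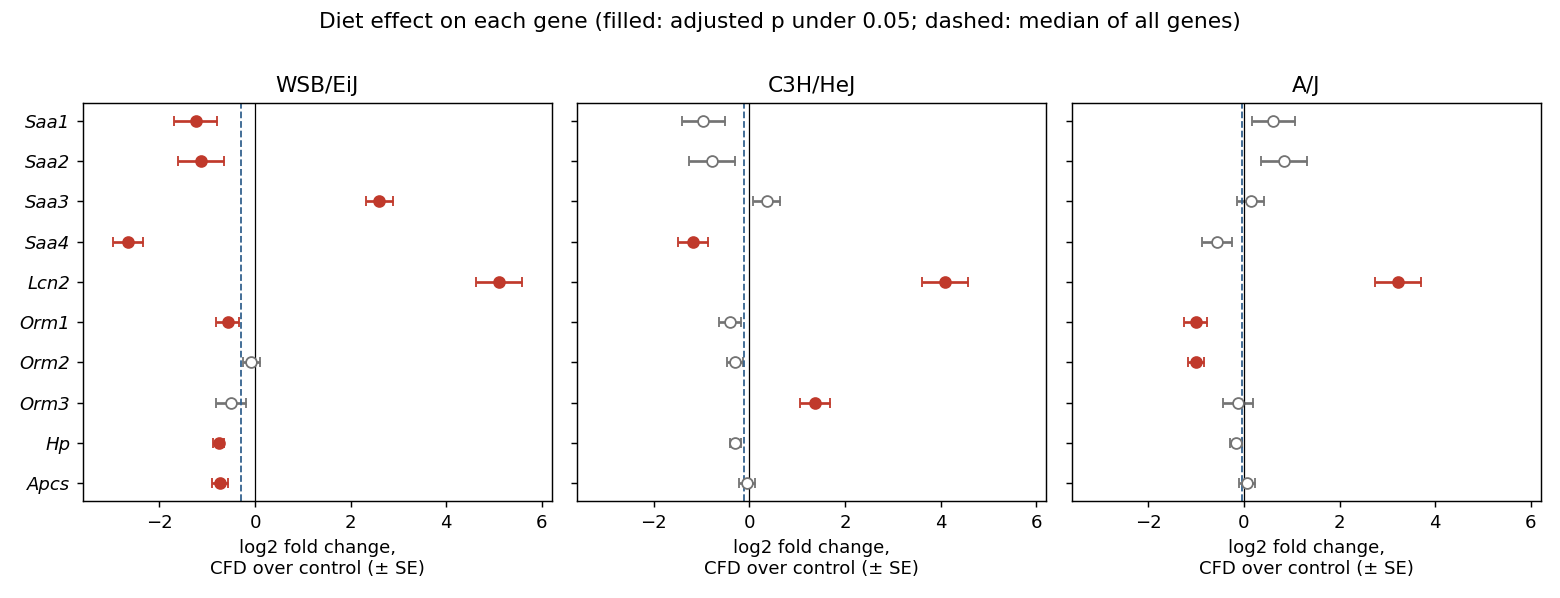
Diet effect on each gene (CFD minus control, log2, with its standard error) in WSB/EiJ, C3H/HeJ and A/J livers, filled where the adjusted p was under 0.05, with dashed lines at the median of all genes (-0.29, -0.12 and -0.05). Lcn2 is above 0 in all 3 strains and Saa4 below 0 in all 3, without a call in A/J, while the sign of Orm1, Orm2, Orm3, Hp and Apcs in WSB/EiJ changes with the scaling.

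Across the 3 tests of a difference in response, 8 of the 10 members were called for WSB/EiJ minus A/J, 3 with a higher and 5 with a lower diet effect in WSB/EiJ, where 49.2% of all genes were called (17.1% higher, 32.1% lower), but quantile and spike-in scaling each gave 4 higher and 1 lower. For WSB/EiJ minus C3H/HeJ 4 members were called, 1 higher and 3 lower, against 26.4% (9.33% and 17.1%). For C3H/HeJ minus A/J 0 members were called against 3.5% (2.16% and 1.34%), while 4 had an unadjusted p under 0.05 in the same limma fit. These tests share the diet effect of a strain with the tests above and are not separate evidence.

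**Figure D4:**
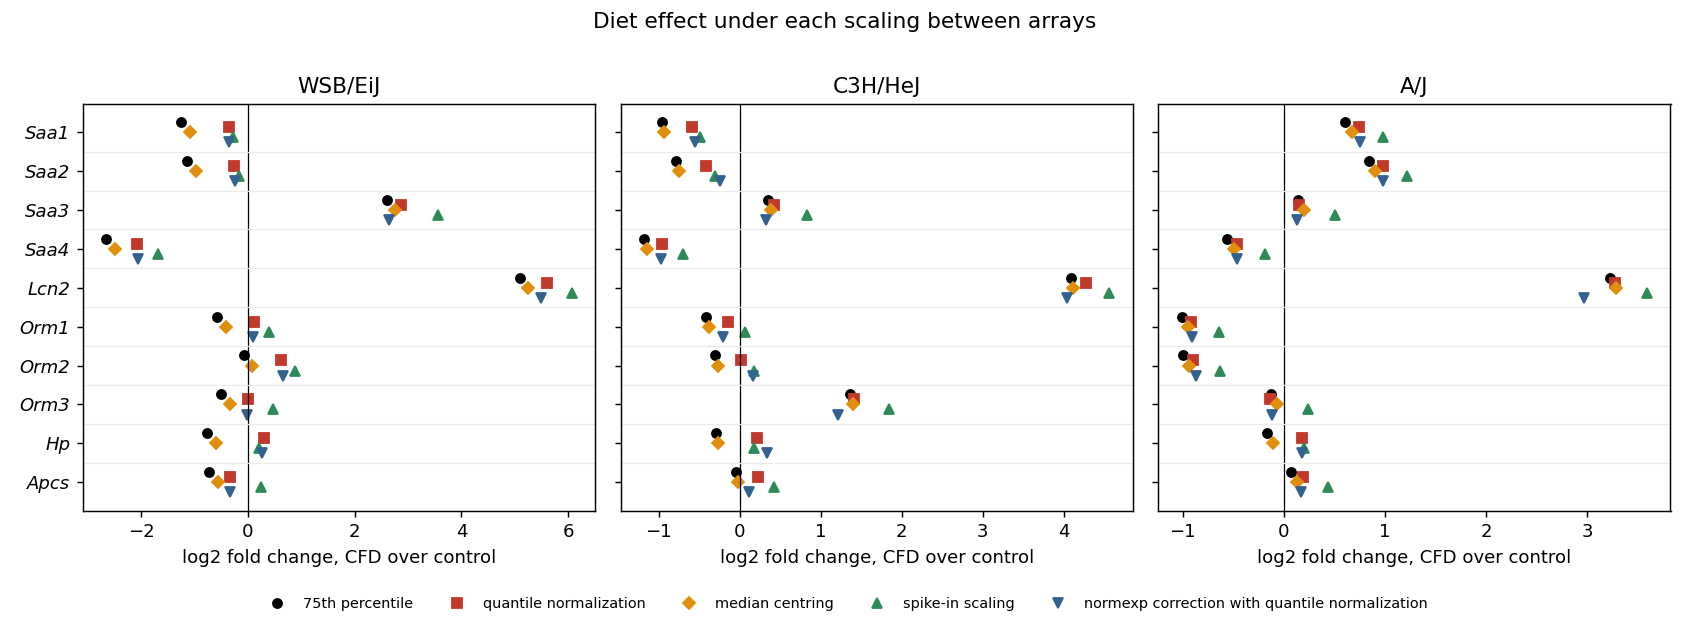
Diet effect (CFD minus control, log2) on each gene in the 3 strains under 5 ways of scaling the arrays: the 75th percentile, quantile, median, spike-in and normexp with quantile. Lcn2 in all 3 strains, Saa3 in WSB/EiJ and Saa4 in WSB/EiJ keep their side of 0, while Orm1, Orm2, Orm3, Hp and Apcs in WSB/EiJ have values on both sides.

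On the control diet the strains already differed. WSB/EiJ was higher than A/J for 7 members and lower for 1, against 45.7% of all genes called (27.3% higher, 18.3% lower). C3H/HeJ was higher than A/J for 4 and lower for 0, against 24.6% (13.9% and 10.7%), and WSB/EiJ was higher than C3H/HeJ for 1 and lower for 1, against 41.6% (23.3% and 18.3%). Control livers of WSB/EiJ had 8.55-fold more Saa1 (log2 difference 3.1, adjusted p = 1.10e-05) and 8.64-fold more Saa2 (3.11, adjusted p = 2.21e-05) than control livers of A/J. Control livers of C3H/HeJ had 6.58-fold more Saa1 (2.72, adjusted p = 0.000129) and 7.12-fold more Saa2 (2.83, adjusted p = 0.000165) than those of A/J. For Saa1 and Saa2, WSB/EiJ and C3H/HeJ were thus both above A/J, with no called difference between WSB/EiJ and C3H/HeJ. Orm1 and Orm2 were alike in this. WSB/EiJ was above A/J by 0.97 for each, and C3H/HeJ by 0.83 for Orm1 and 0.96 for Orm2. WSB/EiJ and C3H/HeJ again had no called difference. The sign of WSB/EiJ minus C3H/HeJ turned with the scaling for Saa2 (-0.06 to 0.31), Orm1 (-0.11 to 0.18) and Orm2 (-0.22 to 0.05). These differences from A/J in Saa1, Saa2, Orm1 and Orm2 were called in all 5 scalings. The Orm1 excess of C3H/HeJ over A/J was lost with only those 2 groups fitted (adjusted p = 0.0941) and without C3H/HeJ control replicate 4 (0.69, 0.0514).

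Orm3 and Apcs set WSB/EiJ apart from both other strains on the control diet, though whether the probes match the WSB/EiJ sequence was not tested. Orm3 was 35.3-fold higher in WSB/EiJ than in A/J (log2 difference 5.14, adjusted p = 4.83e-11), the 21st largest excess among all genes, and 19.5-fold higher than in C3H/HeJ (4.29, adjusted p = 7.62e-10). Apcs was 3.34-fold lower in WSB/EiJ than in A/J (-1.74, adjusted p = 4.88e-08) and 3.20-fold lower than in C3H/HeJ (-1.68, adjusted p = 7.86e-08). Lcn2 was 5.0-fold higher in WSB/EiJ than in A/J control livers (2.32, adjusted p = 0.000510), C3H/HeJ lay between them at 1.31 above A/J (adjusted p = 0.0530), and WSB/EiJ minus C3H/HeJ was 1.01 (adjusted p = 0.0990). Saa4 was 0.90 higher in WSB/EiJ than in A/J (adjusted p = 0.0246), a call made in 2 of 5 scalings and lost without both A/J replicate 4 arrays (0.0627). Saa3 and Hp had no called difference between any 2 strains on this diet.

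On the CFD diet WSB/EiJ was higher than A/J for 7 members and lower for 3, against 59.6% of all genes called (24.8% higher, 34.8% lower). C3H/HeJ was higher than A/J for 4 and lower for 0, against 22% (11.5% and 10.5%), and WSB/EiJ was higher than C3H/HeJ for 3 and lower for 3, against 51.7% (22.3% and 29.4%). CFD livers of WSB/EiJ had 18.3-fold more Lcn2 than CFD livers of A/J (log2 difference 4.19, adjusted p = 4.05e-07) and C3H/HeJ was above A/J by 2.17 (adjusted p = 0.00244). With WSB/EiJ above C3H/HeJ by 2.02 (adjusted p = 0.00161), the order WSB/EiJ, C3H/HeJ, A/J held for Lcn2 at each step. The same order held for Orm3, with WSB/EiJ 2.42 above C3H/HeJ (adjusted p = 2.37e-06) and C3H/HeJ 2.34 above A/J (5.08-fold, adjusted p = 1.11e-05). Saa3 was 2.62 higher in WSB/EiJ than in A/J and 1.91 higher than in C3H/HeJ, and Saa4 was lower in WSB/EiJ than in A/J (-1.19) and C3H/HeJ (-1.30), which left C3H/HeJ and A/J without a called difference for either gene. For Saa1 and Saa2 the WSB/EiJ excess over A/J narrowed to 1.25 (adjusted p = 0.0223) and 1.13 (adjusted p = 0.0475), and without both A/J replicate 4 arrays it was 1.07 (adjusted p = 0.0754) and 0.92 (adjusted p = 0.145). The Saa2 excess was also lost in 4 other settings, with adjusted p of 0.0510 to 0.0709. With 1 array left out at a time, the Saa2 excess was lost in 14 of 24 fits, with adjusted p up to 0.141. The Saa1 excess was lost in 4 of the 24, with adjusted p up to 0.0710. Apcs was 5.78-fold lower in WSB/EiJ than in A/J (-2.53, adjusted p = 1.58e-10). Hp was 0.31 lower in WSB/EiJ than in each other strain (differences -0.31, adjusted p = 0.0336 against A/J and 0.0408 against C3H/HeJ), each called in 1 of 5 scalings and the one against A/J at 0.24 under quantile scaling.

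The wider acute phase programme is given from lists of known genes. Of 20 other positive acute phase genes, such as fibrinogen chains and complement factors, 4 rose and 13 fell in WSB/EiJ, 2 rose and 10 fell in C3H/HeJ, and 2 rose and 3 fell in A/J, with medians of -0.79, -0.42 and -0.12. Under quantile scaling the WSB/EiJ counts were 10 higher and 5 lower, so the balance for these bright genes depended on the scaling. Il1rn, the interleukin 1 receptor antagonist, was called higher in each strain in all 5 scalings. Its size was not settled, running from 1.63 to 4.61 in WSB/EiJ, 0.87 to 2.52 in C3H/HeJ and 0.75 to 2.52 in A/J, and it was above background on 1 of 4 control arrays in WSB/EiJ and in A/J. Itih4, an inter-alpha-trypsin inhibitor chain, had -1.24, -0.83 and -0.35, the last not called. Cd14, the lipopolysaccharide co-receptor that hepatocytes also secrete, rose 59.0-fold in WSB/EiJ, 14-fold in C3H/HeJ and 3.19-fold in A/J, called in all 5 scalings.

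Of 10 negative acute phase genes, 10 fell in WSB/EiJ, 8 in C3H/HeJ and 1 in A/J, and 0 rose in any strain, where 47.8%, 27.3% and 4.42% of all genes fell. Their medians were -0.99, -0.46 and -0.31, and under quantile scaling 2 fell and 1 rose in WSB/EiJ. Fetub, a fetuin, had effects of -2.42, -1.17 and -0.67 in WSB/EiJ, C3H/HeJ and A/J and was called lower in 5, 5 and 3 of 5 scalings. Ttr, the thyroxine carrier transthyretin, had -1.25, -0.46 and -0.50, the last not called, and Rbp4, the retinol carrier, had -1.04, -0.57 and -0.22, the last not called. Rbp4 was called lower in 2 of 5 scalings in WSB/EiJ and in C3H/HeJ. The 10 hepatocyte markers, which share Alb and Ttr with this list, moved in the same direction, with 10 lower in WSB/EiJ, 8 in C3H/HeJ and 2 in A/J, and 4 lower in WSB/EiJ under quantile scaling. The part of hepatocyte number in these counts was not tested.

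The interleukin 6 and STAT3 list had 13 of 17 genes bright enough to test, with Il6, Osm, Lif and Il11 too dim. In WSB/EiJ 4 rose and 6 fell, in C3H/HeJ 1 rose and 6 fell, and in A/J 0 rose and 2 fell, and under spike-in scaling the counts were 8 and 2, 5 and 1, and 5 and 1. Lifr, the receptor of leukaemia inhibitory factor, fell, with effects of -4.09 in WSB/EiJ, -2.45 in C3H/HeJ and -1.01 in A/J. Osmr, the oncostatin M receptor subunit, rose by 2.65 in WSB/EiJ and 1.13 in C3H/HeJ, and Il6ra, the interleukin 6 receptor, had -1.69 and -0.92, all called. Socs3, the feedback inhibitor that Stat3 induces, had effects of 0.15, -0.70 and 0.88 in WSB/EiJ, C3H/HeJ and A/J, none called. Stat3 itself had effects of -0.62, -0.55 and -0.61, all called under this scaling, but reached 0.35 in WSB/EiJ under spike-in scaling.

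The interleukin 1, tumour necrosis factor and NF-kappaB list had 19 genes tested, of which 13 rose and 2 fell in WSB/EiJ, 9 rose and 2 fell in C3H/HeJ, and 5 rose and 0 fell in A/J, where 24.6%, 18.2% and 6.01% of all genes rose. Over 5 scalings the number that rose was 13 to 17, 9 to 14 and 4 to 13. Relb, an NF-kappaB subunit, rose by 3.53 in WSB/EiJ, 2.20 in C3H/HeJ and 1.20 in A/J, and Tlr2, a receptor of bacterial lipoproteins, by 3.19, 2.17 and 1.46. Tlr4, the lipopolysaccharide receptor that is defective in C3H/HeJ, rose by 2.43 in WSB/EiJ and 1.23 in C3H/HeJ, and its effect of 0.66 in A/J was not called. The Tlr4 rise was called in all 5 scalings in WSB/EiJ and C3H/HeJ. Its size was not settled, at 1.13 to 3.40 in WSB/EiJ and 0.36 to 1.70 in C3H/HeJ. Il1rap, the co-receptor of interleukin 1, fell, with effects of -2.10 in WSB/EiJ and -1.01 in C3H/HeJ, and -0.39 in A/J was not called. Il1b, the cytokine interleukin 1 beta, had effects of 2.29, 2.33 and 1.20, the last not called (adjusted p = 0.0782). Over 5 scalings the Il1b effect ran from 1.36 to 3.26 in WSB/EiJ and 1.21 to 2.81 in C3H/HeJ, called in each. Tnf was not well above background on any control array, and was at least 2.73-fold higher in WSB/EiJ CFD livers, at least 1.24-fold in C3H/HeJ and at least 1.46-fold in A/J, with 4, 2 and 3 of 4 CFD arrays above background and adjusted p of 2.10e-07, 0.00147 and 0.00782. Cebpd, a C/EBP factor of the acute phase, rose by 1.00 in WSB/EiJ and was called in all 5 scalings, whereas Cebpb, at -0.67 in WSB/EiJ, reached 0.30 under another scaling.

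Of 8 genes for receptors and partners of the acute phase proteins that could be tested, 4 rose and 3 fell in WSB/EiJ, 3 and 2 in C3H/HeJ, and 2 and 0 in A/J. Cd163, the macrophage receptor of haptoglobin with haemoglobin, was too dim to test. Hmox1, the haem oxygenase that degrades the haem so taken up, rose by 1.90 in WSB/EiJ, 0.52 in C3H/HeJ and 0.49 in A/J. Cd36, a scavenger receptor that also binds serum amyloid A, rose by 2.63, 3.06 and 2.46. Lcat, the cholesterol-esterifying enzyme of high-density lipoprotein, had effects of -1.26, -0.83 and -0.19, the last not called. Slc22a17, a receptor of Lcn2, rose by 0.69 in WSB/EiJ (adjusted p = 0.0117), and its effects of 0.12 in C3H/HeJ and -0.01 in A/J were not called. Fpr2, a formyl peptide receptor that binds serum amyloid A, was at least 4.02-fold higher in WSB/EiJ CFD livers, where it was above background on 4 of 4 CFD and 0 of 4 control arrays (adjusted p = 5.59e-07).

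**Figure D5:**
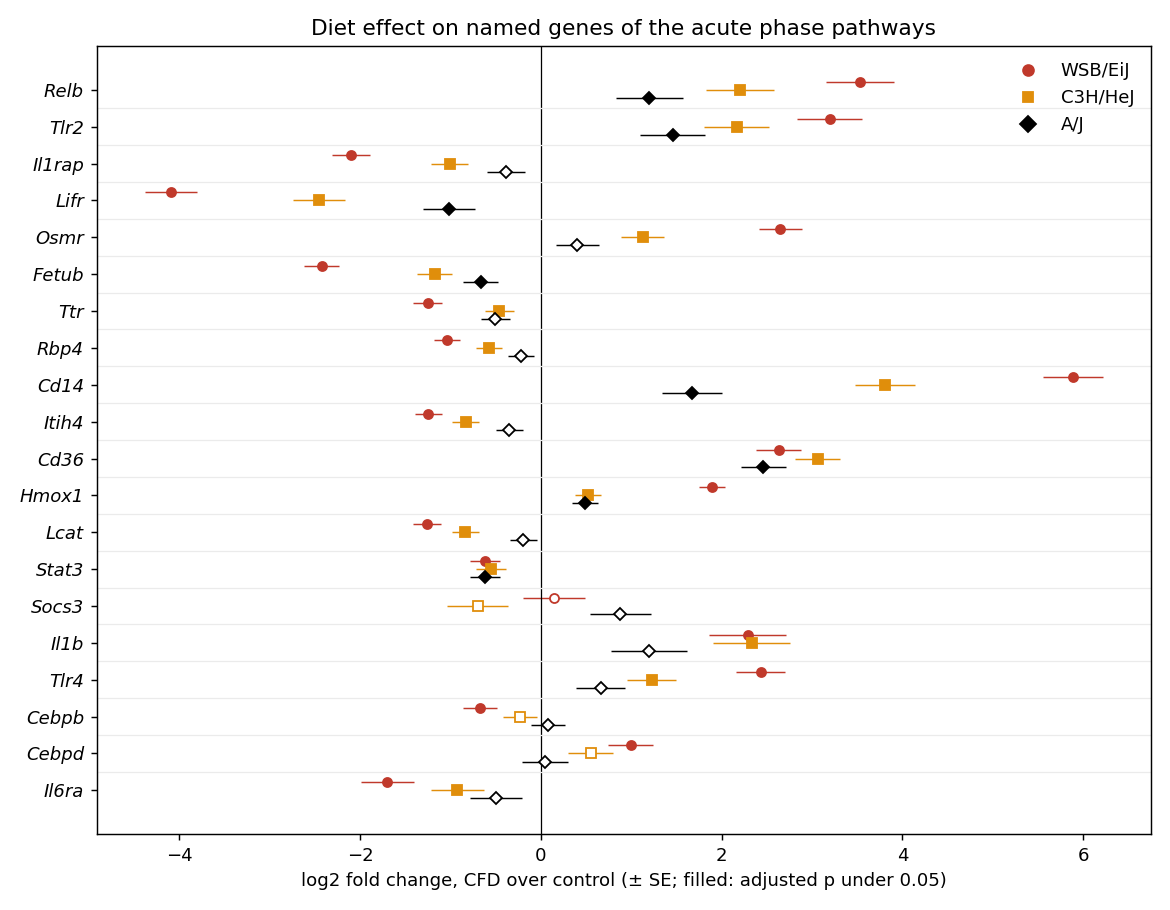
Diet effects (CFD minus control, log2) on named genes of the acute phase lists in WSB/EiJ, C3H/HeJ and A/J livers, filled where the adjusted p was under 0.05. Cd14, Relb and Tlr2 are above 0 in all 3 strains and Lifr and Fetub below 0 in all 3, while the list of other positive acute phase genes changes its balance with the scaling.

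Genes were also ranked by how closely their levels followed a member over the 24 arrays, as the root mean square of the difference after centring each gene. Nearest to Lcn2 were Cxcl14, a chemokine (0.693), Smpd3, a sphingomyelinase (0.710), and Adam8, a membrane protease (0.873). Their diet effects were 4.28, 3.41 and 2.5 for Cxcl14 in WSB/EiJ, C3H/HeJ and A/J, 4.90, 3.97 and 2.77 for Smpd3, and 6.36, 3.94 and 3.12 for Adam8. Their effects ordered the strains as those of Lcn2 did, which their choice by closeness to Lcn2 favours. The Lcn2 response in C3H/HeJ itself had no called difference from that in either other strain. Nearest to Saa3 was Ppic (0.396), a cyclophilin, with effects of 2.61, 0.90 and 0.50, followed by Arpc1b (0.431), an actin-nucleating complex subunit, with 2.36, 0.79 and 0.47. Nearest to Saa1, apart from Saa2, were Exosc1 (0.664) and Mup20 (0.678), several times farther away than Saa2. The arrays share their scaling, so these distances describe the same 24 arrays and carry no test.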

How the data were processed

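Total RNA of 24 livers of male mice was labelled with Cy3 and hybridised to 1-colour Agilent arrays, per the labels' protocols, and scanned values were extracted with Agilent Feature Extraction 10.7, per the submitters' processing notes. The authors deposited 1 scanner file per array, whose processed signal is an intensity that Feature Extraction has corrected for background, per the file headers. The deposited flags (0 or 1 per spot) mark spots above background, outliers and saturation. The deposited table of values, also an intensity, equals the processed signal times 1 constant per array. Samples were grouped by strain and diet from the labels.

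From these files, outlier spots (3332) were set aside, spots of 1 probe averaged, log2 taken and each array's 75th percentile (137 to 315 in signal) subtracted. That percentile differed with diet, at 178 to 315 on CFD arrays and 137 to 199 on control arrays. In WSB/EiJ it was 281 to 315 on CFD arrays against 142 to 157 on control arrays. Of 55681 gene probes 32404 were named, through RefSeq for most, and 20542 named probes were above background on all arrays of a group. The brightest probe of each gene gave 15353 genes. limma 3.58.1 in R 4.3.3 fitted 6 group means over 24 arrays with 12 contrasts and Benjamini-Hochberg adjustment. Between 44.4% and 56.0% of gene spots were above background on each array, and 0 were saturated. The arrays lay on 3 slides of 8, each with both diets of every strain.

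The 10 members came from a rule on gene names, and the members, the gene lists, the tests and the alternatives were chosen with earlier results of these data known. Genes named beside the members were, in each list, the 3 with the lowest adjusted p of limma's F test over the diet effects, together with Il6, Stat3, Socs3, Il1b, Tnf, Tlr4, Cebpb, Cebpd and Il6ra, and the 3 genes nearest a member by root mean square difference over 24 arrays. Slc22a17, Fpr2, Adgre1, Clec4f, S100a9 and the genes under other observations were chosen after their values were seen. A gene that this rule names is not reported here. The fit was tested on simulated data with 200 changed genes of 15303: 2-fold changes were recovered in 68% of cases in WSB/EiJ, 74% in C3H/HeJ and 73% in A/J, and 4-fold changes in 94% to 95%. Alternatives were quantile, median and spike-in scaling (8 probe sequences), normexp with quantile scaling, the deposited table, 2 other filters on dim probes, the mean of a gene's probes, only the groups compared, the slide as a fixed or random block, the replicate number as a block, both A/J replicate 4 arrays left out and each array left out. Promoter sequences came from RefSeq's GRCm38.p6 and were scanned with Biopython 1.88, and figures were drawn with matplotlib 3.10.9.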

Additional observations from a re-analysis of the deposited data

Results flagged for a closer look

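Among the 60 sets of 4 arrays (10 genes in 6 groups), 4 held 1 array far from the others, where the gap to the nearest array, as a share of the range, passed Dixon's 95% limit, and chance flags about 1 in 20 such sets. Saa2 was at 4.26 on A/J control replicate 1, with the nearest array at 5.50. Saa4 was at 7.28 on C3H/HeJ control replicate 4, with the nearest at 6.09. Orm1 was at 4.13 on A/J CFD replicate 3, with the nearest at 4.54, and at 5.35 on C3H/HeJ control replicate 2, with the nearest at 6.51.

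Diet effects that differed between strains by the limma test of the difference were flagged as well. For WSB/EiJ minus A/J the log2 differences were 2.46 for Saa3, 1.87 for Lcn2 and 0.92 for Orm2 upward, and -1.85 for Saa1, -1.98 for Saa2, -2.09 for Saa4, -0.59 for Hp and -0.79 for Apcs downward. For WSB/EiJ minus C3H/HeJ they were 2.24 for Saa3 upward, and -1.47 for Saa4, -1.86 for Orm3 and -0.68 for Apcs downward. The Hp difference against A/J was 0.12 under quantile scaling, so its direction was not settled.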

How the results depend on the processing

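Of the 60 member comparisons called among 120, 41 kept their call and direction under every alternative, and the diet effects called in all 5 scalings were Lcn2 in each strain, Saa3 and Saa4 in WSB/EiJ, Saa4 and Orm3 in C3H/HeJ and Orm1 and Orm2 in A/J. Scalings moved the median of all genes in WSB/EiJ by 0.264 under quantile, 0.159 under median, 0.967 under spike-in and 0.274 under normexp scaling. The share of higher calls among all genes was 34% in WSB/EiJ, 40% in C3H/HeJ and 57.6% in A/J, against 89.7%, 90.9% and 95.9% under spike-in, 49.6%, 52.4% and 62.3% under quantile and 43.9%, 48.4% and 75.2% under median scaling. The members called in WSB/EiJ were 5 under quantile (4 higher, 1 lower), 4 under spike-in (3 and 1) and 5 under normexp scaling (3 and 2). Those for C3H/HeJ minus A/J were 1 under quantile and 1 under normexp, for WSB/EiJ minus A/J 5 under quantile and 5 under spike-in (4 higher and 1 lower each), and for WSB/EiJ minus C3H/HeJ 2 under median scaling.

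Quantile scaling reversed Hp in A/J (0.18), Orm2 (0.014), Hp (0.21) and Apcs (0.22) in C3H/HeJ, and Orm1 (0.12), Orm2 (0.63), Orm3 (0.00147) and Hp (0.30) in WSB/EiJ. It reversed Hp (0.034) and Apcs (0.038) for C3H/HeJ minus A/J, Orm3 (0.14) and Hp (0.12) for WSB/EiJ minus A/J, Saa1 (0.23), Saa2 (0.15), Orm1 (0.26) and Hp (0.091) for WSB/EiJ minus C3H/HeJ, and Hp on CFD for WSB/EiJ against A/J (0.24) and C3H/HeJ (0.11). Median scaling reversed Orm2 in WSB/EiJ (0.081). Spike-in scaling reversed Orm3 (0.24) and Hp (0.20) in A/J, Orm1 (0.067), Orm2 (0.17), Hp (0.18) and Apcs (0.43) in C3H/HeJ, and Orm1 (0.40), Orm2 (0.89), Orm3 (0.47), Hp (0.21) and Apcs (0.24) in WSB/EiJ. It reversed Orm3 (0.22) and Hp (0.00471) for WSB/EiJ minus A/J, Saa1 (0.21), Saa2 (0.14), Orm1 (0.33) and Hp (0.024) for WSB/EiJ minus C3H/HeJ, and Hp on CFD for WSB/EiJ against A/J (0.000198). Normexp reversed Hp in A/J (0.18), Orm2 (0.16), Hp (0.34) and Apcs (0.11) in C3H/HeJ, Orm1 (0.092), Orm2 (0.65) and Hp (0.27) in WSB/EiJ, Hp for C3H/HeJ minus A/J (0.16), Orm3 (0.11) and Hp (0.088) for WSB/EiJ minus A/J, Saa1 (0.19) and Orm1 (0.30) for WSB/EiJ minus C3H/HeJ, and Hp on CFD for WSB/EiJ against A/J (0.23) and C3H/HeJ (0.10). Without both A/J replicate 4 arrays, Orm3 in A/J was 0.11 and Saa3 for C3H/HeJ minus A/J -0.00770.

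With 1 array left out at a time, called members numbered 5 to 8 in WSB/EiJ, 3 to 7 in C3H/HeJ and 3 to 3 in A/J, 6 to 8 for WSB/EiJ minus A/J, 3 to 5 for WSB/EiJ minus C3H/HeJ and 0 to 1 for C3H/HeJ minus A/J. Between strains on CFD they numbered 7 to 10 for WSB/EiJ against A/J, 4 to 6 for C3H/HeJ against A/J and 5 to 6 for WSB/EiJ against C3H/HeJ, and on the control diet 7 to 9, 3 to 6 and 2 to 4. Without C3H/HeJ control replicate 2 the C3H/HeJ count was 7. Effects that crossed 0 spanned -0.065 to 0.36 for Saa3, -0.00364 to 0.14 for Apcs and -0.29 to 0.064 for Orm3 in A/J, and -0.22 to 0.13 for Apcs in C3H/HeJ. The differences that crossed 0 spanned -0.063 to 0.42 for Saa3, -0.20 to 0.00766 for Hp and -0.29 to 0.064 for Apcs for C3H/HeJ minus A/J, and -0.74 to 0.061 for Saa1, -0.81 to 0.00426 for Saa2 and -0.30 to 0.15 for Orm1 for WSB/EiJ minus C3H/HeJ.

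With the replicate number as a block, Hp in C3H/HeJ stayed at -0.30 with adjusted p = 0.0217, Hp for WSB/EiJ minus C3H/HeJ at -0.47 with 0.0220, and Saa2 on CFD for WSB/EiJ against A/J at 1.13 with 0.0510, while other member calls did not change. Same-numbered arrays correlated at -0.350 to 0.063 in their deviations, so they share only a number. Over all genes, the A/J count was 1602, against 4816 under spike-in scaling and 965 with only the groups compared. C3H/HeJ had 6979 and 4568 with only the groups compared, WSB/EiJ minus C3H/HeJ 4059 and 2516 under median scaling, and CFD C3H/HeJ against A/J 3371 and 2246 with only the groups compared. C3H/HeJ minus A/J had 538, against 236 under spike-in scaling, 338 without a filter, 358 with a filter on all arrays and 227 with only the groups compared. The cause of these moves was not tested. Dim probes near background gave a bound (Tnf) or a size that moved with the scaling (Il1rn).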

Other observations

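Some other liver proteins of the acute phase lists are given for their values alone, chosen after these were seen. Crp, the pentraxin C-reactive protein and a relative of Apcs, was 3.53-fold lower in WSB/EiJ CFD than in WSB/EiJ control livers (log2 difference -1.82, limma adjusted p = 6.55e-08), called in all 5 scalings. Its effects of -0.19 in C3H/HeJ and -0.08 in A/J were not called. Fga, a fibrinogen chain, had effects of -1.31 in WSB/EiJ, -1.05 in C3H/HeJ and -0.72 in A/J, all called, and its values under 5 scalings lay between -1.31 and -0.35 in WSB/EiJ.

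The metallothioneins Mt1 and Mt2, which bind zinc and copper, were 5.81-fold and 6.28-fold lower in WSB/EiJ CFD than in WSB/EiJ control livers (log2 differences -2.54 and -2.65), called in all 5 scalings. In C3H/HeJ the Mt2 effect was -1.85 (adjusted p = 0.0345), called in 2 of 5 scalings, and that of Mt1 -1.40 (adjusted p = 0.0597). In A/J the effects of 0.50 for Mt1 and 0.13 for Mt2 were not called. Hamp, the iron hormone hepcidin, averaged 5.82 ± 0.78 in WSB/EiJ CFD and 4.68 ± 1.42 in WSB/EiJ control livers (SD, n = 4 each), a difference of 1.14 (adjusted p = 0.0438), and its effects of -0.49 in C3H/HeJ and 0.46 in A/J were not called.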
